A study of Mus musculus with 33 samples.

Results

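Treatment with an antibody against PD-1 alone was compared with vehicle in subcutaneous Myc-CaP tumours, across the protein-coding genes of the deposited expression table. Myc-CaP is a mouse prostate cancer cell line derived from a MYC transgenic animal. Per the labels, the cells were implanted under the skin of both flanks of male FVB mice, so that the host was immunocompetent and of the strain of the line, and no age was used here. Treatment started at a tumour volume of 50 mm3 and lasted 3 weeks. The protocol describes a random assignment to ESK981 (15 mg/kg) or oral vehicle on 5 days a week, and to anti-PD-1 or its isotype control at 200 µg per mouse into the peritoneum 3 times a week. The sample labels themselves give the groups as vehicle or PD1 and do not say for each mouse which control injection it received.

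The comparison used the 17 tumours labelled vehicle (10 tumours of 5 mice) or PD1 without ESK981 (7 tumours of 5 mice), out of 33 tumours of 20 mice in all. The other tumours, 8 with ESK981 and 8 with ESK981 and anti-PD-1 (the combination), took part in the estimate of spread. The ear tag defined the mouse, and the values log2(FPKM + 0.5) of tumours of the same mouse were averaged, since 2 anti-PD-1 mice and all vehicle mice had a tumour on each flank. FPKM is a fragment count adjusted for the length of the exons and for the size of the library. Tumours are named by a mouse number within the group, in label order, and by flank (L or R). Of 22095 protein-coding genes, 11639 reached 0.5 FPKM in 5 or more tumours and entered the test. Genes with a limma p under 0.05 after Benjamini-Hochberg adjustment over all 15846 genes of any type that passed this filter are referred to as called. Values are mean ± SD of FPKM over 5 mice, log2 fold changes are anti-PD-1 minus vehicle ± SE of log2(FPKM + 0.5), a scale on which changes of low genes come out too small, fold values are on the same scale, and "rose" and "fell" are kept for called genes.

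PD-1 (gene Pdcd1) is an inhibitory receptor of activated T cells. It binds PD-L1 (Cd274) and PD-L2 (Pdcd1lg2) on tumour and myeloid cells, and an antibody that blocks it can restore the killing and interferon gamma secretion of T cells. Interferon gamma in turn induces PD-L1, the immunoproteasome, the peptide transporter and MHC molecules, and the chemokines Cxcl9 and Cxcl10. In bulk tumour RNA, fewer cells of a type and less RNA per cell cannot be told apart.

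The libraries of the groups differed beyond the treatment. Of the vehicle tumours, 9 were sequenced on one flow cell and vehicle 5R on another, which it shared with all 23 treated tumours, so that treatment and flow cell cannot be told apart for the other 9. Depth ran from 9.90e+06 to 1.84e+07 fragments in vehicle tumours and from 1.13e+07 to 2.42e+07 in anti-PD-1 tumours. The summed FPKM of 3 genes that lie on ribosomal RNA sequence, a measure of what depletion left, was 176044 ± 35810 in vehicle mice and 76762 ± 18505 in anti-PD-1 mice (n = 5 each, exact permutation p = 0.00794 two-sided, the smallest possible, adjusted p = 0.0159 over 4 library measures). The protein-coding share of all FPKM was 30.9% ± 5.10 in vehicle and 49.7% ± 4.91 in anti-PD-1 mice (exact permutation p = 0.00794). Vehicle 5R and anti-PD-1 4R stood apart with the lowest depth and the most mitochondrial RNA of these 17 tumours (mitochondrial coding FPKM of 90856 and 52728), and counts of calls below are therefore also given without them where that changed the calls. Of the markers of the cell line's origin, Krt8 was at a median of 17.4 FPKM in vehicle and 22.97 in anti-PD-1 tumours, and Foxa1 at 38.4 and 46.3. The epithelial genes Epcam (at most 0.0667 FPKM) and Cdh1 (at most 0.860) were near 0 in these tumours.

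Anti-PD-1 alone was accompanied by few called differences. Limma called 12 of 11639 protein-coding genes (0.103%), 6 higher and 6 lower, and 124 of 15846 genes of any type (0.783%), 75 higher and 49 lower. Zinc transporter Slc39a7, centromere protein gene Cenpb, parathymosin gene Ptms and ATP synthase subunit gene Atp5e fell, while Hif3a and the B7 family ligand Vtcn1 rose. None of the called genes was the antibody's target, a T cell gene, an interferon-response gene or a gene of antigen presentation. Of the remaining 6 called genes, 5 carry predicted (Gm) names and 1 is a ribosomal protein pseudogene.

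**Figure D1:**
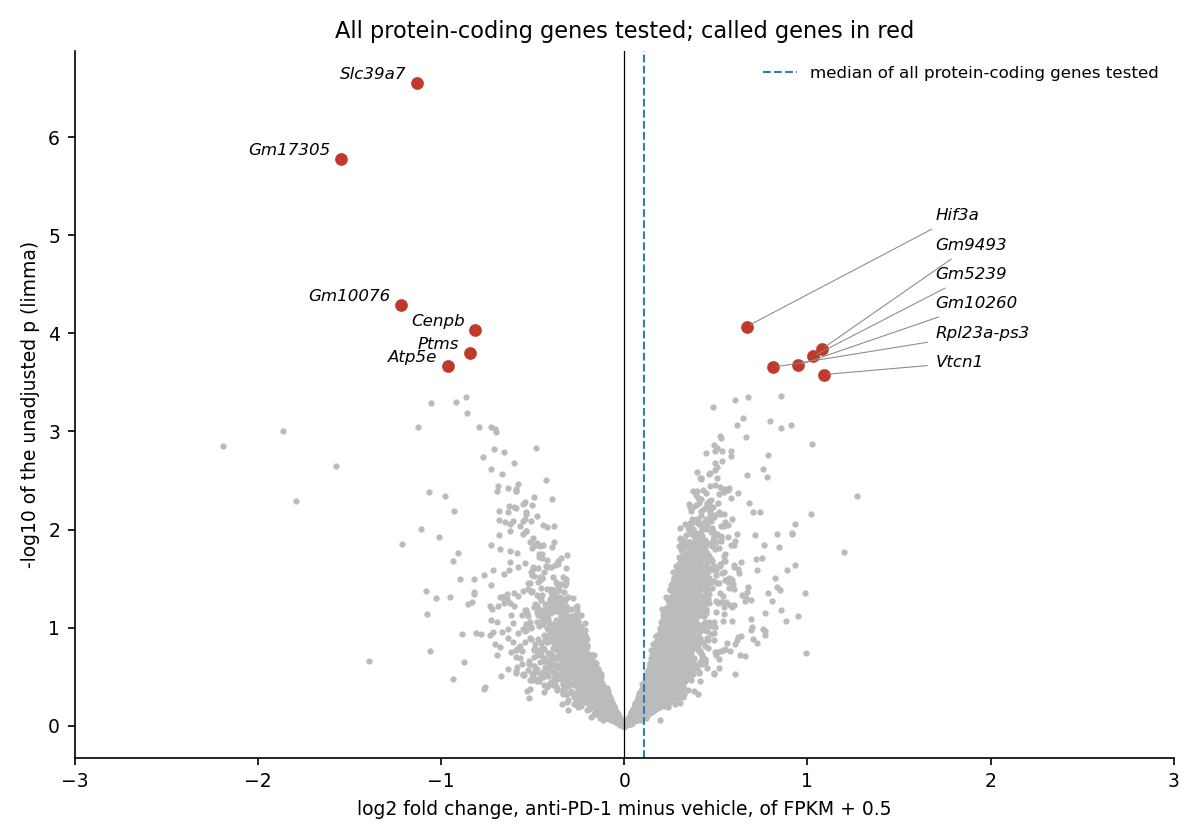
Log2 fold change (x axis, anti-PD-1 minus vehicle, of FPKM + 0.5) against -log10 of the unadjusted limma p (y axis) for 11639 protein-coding genes, each a grey point, with the 12 called genes in red and named. The dashed line at the median of 0.11 lies to the right of 0, and Slc39a7 stands highest.

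Across the 12 called genes, which the test had selected, the mice of the groups did not overlap for 9 genes, and the single tumours did not overlap for 2, Atp5e and Gm10076. Over all 11639 protein-coding genes tested, this held for 292 (2.51%) by mice and for 14 (0.12%) by tumours. Anti-PD-1 4R lay within the vehicle range for 8 of the 12, and vehicle 5R lay within the range of the other vehicle tumours for 9. All ESK981 mice lay beyond all vehicle mice for 8 of the 12, and all combination mice for 6, against the same vehicle mice. These groups share the second flow cell with the anti-PD-1 tumours, and the same count over all genes was not made. When 4R and 5R were both left out, limma called 80 protein-coding genes higher and 46 lower, including all 12, and 616 genes of any type. Leaving out 4R alone gave 109 and 37, and leaving out 5R alone 6 and 12. Adding the flow cell to the model, whose estimate relied on vehicle 5R as the one vehicle tumour on the second flow cell, gave 3444 higher and 34 lower, moved the median of all protein-coding genes to 0.59, and called none of the 12 (adjusted p from 0.0671 to 0.741). With that term the log2 fold changes of Hif3a (0.69) and Vtcn1 (1.41) were at least as large as without it, in a fit with the higher median of 0.59. Hif3a thus lay near the median of all protein-coding genes, whereas without the term it was at 0.67 beside 0.11. Cenpb was at −0.71 and Atp5e at −0.69. The changes of Slc39a7 (−0.55) and Ptms (−0.13) were smaller by more than 1.5 times, though also below that fit's median. Of the 12, Slc39a7 and Gm17305 were called whichever mouse of either group was left out. The other 10 missed the threshold when p-values were adjusted over protein-coding genes alone (adjusted p from 0.127 to 0.153), and were all lost without vehicle mouse 3 and without anti-PD-1 mouse 1, 2 or 3. The split of calls depended on scaling: median-of-ratios scaling, which moved the median of all protein-coding genes from 0.11 to −0.01, gave 20 higher and 151 lower (11.7% higher against 50% as deposited), scaling to nuclear protein-coding FPKM gave 305 and 98 (75.7%), and removing a trend with GC content and exon length gave 34 and 92 (27.0%).

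Slc39a7 encodes ZIP7, which releases zinc from the endoplasmic reticulum and Golgi into the cytosol (chromosome 17, 34028269 to 34031682, minus strand, GRCm38). It was at 1.71, 2.84 and 3.96 FPKM (lowest, median, highest) in the 10 vehicle tumours and at 0.700, 0.857 and 2.08 in the 7 anti-PD-1 tumours. The lowest vehicle tumour was 5R and the highest anti-PD-1 tumour was 4R, and without these the groups were separate, at 2.46 or more against 1.32 or less. Slc39a7 fell 2.19-fold, from 2.83 ± 0.381 to 1.04 ± 0.334 FPKM (log2 fold change −1.13 ± 0.15, adjusted p = 0.000887), and it stayed called whichever of the 10 mice was left out. With the flow cell in the model it was at −0.55, beside a median of 0.59 over all protein-coding genes, and not called (adjusted p = 0.121). ESK981 tumours were at 0.550 to 1.004 FPKM and combination tumours at 0.418 to 0.973, against the same vehicle mice. The GENCODE M21 exons of Slc39a7 share 80.7% of their 2584 bases with Gm20427 on the same strand, a transcript listed at 0.0391 FPKM or less in these tumours, so how fragments in the shared bases were assigned is uncertain.

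No other zinc gene was called. Of 19 tested zinc transporters and metallothioneins, 14 had a log2 fold change above 0, and the list's median was 0.14 beside 0.11 over all protein-coding genes tested. The Golgi and vesicle exporter Slc30a6 was at 0.45 ± 0.17 (adjusted p = 0.227), the highest of the list. Metallothioneins buffer cytosolic zinc, and Mt1 was at 62.0, 91.5 and 147 FPKM (lowest, median, highest) in vehicle tumours and at 38.0, 53.8 and 118 in anti-PD-1 tumours, with 4R the highest of the latter. Its log2 fold change was −0.79 ± 0.21 and missed the threshold (adjusted p = 0.0697), but without 4R and 5R it was −0.85 ± 0.20 and passed (adjusted p = 0.0246). Mt2 was at −0.58 ± 0.24 (adjusted p = 0.286).

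Cenpb encodes the centromere protein that binds satellite DNA (chromosome 2, 131175182 to 131180067, minus strand). Its values in vehicle tumours were 11.9, 15.3 and 28.0 FPKM (lowest, median, highest, from 756 to 1581 fragments) and those in anti-PD-1 tumours were 7.19, 8.68 and 16.6 (763 to 1118 fragments). The 6 anti-PD-1 tumours other than 4R, at 9.46 or less, were below every vehicle tumour. So were all ESK981 tumours (5.83 to 8.92 FPKM) and all combination tumours (4.25 to 9.77). Cenpb fell 1.76-fold, from means of 16.8 ± 2.98 to 9.31 ± 1.52 FPKM (−0.81 ± 0.17, adjusted p = 0.0241). The other 16 tested centromere genes were not called, and the list of 17 had a median of 0.19, with Cenpc1, which builds the inner kinetochore, at 0.36 ± 0.15 (adjusted p = 0.275).

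Ptms encodes parathymosin, a small acidic nuclear protein (chromosome 6, 124913681 to 124920103, minus strand). It was at 45.1, 75.2 and 98.0 FPKM (lowest, median, highest) in vehicle and at 33.9, 38.5 and 51.5 in anti-PD-1 tumours. The groups overlapped through vehicle 5R, the lowest of its group, and the other 9 vehicle tumours were at 59.5 or more. Ptms fell 1.80-fold, from means of 74.5 ± 11.9 to 40.7 ± 6.51 FPKM (−0.84 ± 0.18, adjusted p = 0.0335). With the flow cell in the model it was at −0.13 (adjusted p = 0.741), beside a median of 0.59 over all protein-coding genes. ESK981 tumours were at 26.8 to 53.1 FPKM and combination tumours at 22.5 to 45.4, against the same vehicle mice.

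Atp5e encodes the epsilon subunit of mitochondrial ATP synthase (chromosome 2, 174461072 to 174464105, minus strand). Vehicle tumours had 21.4, 24.9 and 33.3 FPKM (lowest, median, highest) and anti-PD-1 tumours 10.5, 13.8 and 18.5, with no overlap even with 4R and 5R included. ESK981 tumours were at 12.2 to 19.97 FPKM and combination tumours at 6.52 to 22.2, against the same vehicle mice. Atp5e fell 1.95-fold, from means of 26.6 ± 4.18 to 13.6 ± 3.20 FPKM (−0.96 ± 0.22, adjusted p = 0.0372). It was the one called among 83 nuclear genes of oxidative phosphorylation, whose median was −0.18, with 59 below 0. Without 4R and 5R, where limma called 80 protein-coding genes higher and 46 lower of 11639, 4 of the 83 were called. Besides Atp5e these were the complex I subunit genes Ndufa3 (−0.70), Ndufa2 (−0.67) and Ndufs5 (0.68). The 13 mitochondrially encoded protein genes were not called with all tumours (median −0.62, 12 below 0, lowest mt-Nd6 at −2.19). Without 4R and 5R the complex I subunit gene mt-Nd6 (−2.40, adjusted p = 0.0188) and the cytochrome oxidase subunit gene mt-Co1 (−1.18, adjusted p = 0.0483) were called lower, and over all tumours the summed FPKM of the 13 ranged over mice from 13152 to 56463 in vehicle and from 7233 to 30159 in anti-PD-1.

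Hif3a encodes a hypoxia-inducible factor alpha subunit, of which short isoforms are known to restrain HIF-1 (chromosome 7, 17031507 to 17062427, minus strand). Vehicle tumours were at 3.10, 5.14 and 8.73 FPKM (lowest, median, highest, 241 to 981 fragments) and anti-PD-1 tumours at 7.55, 8.69 and 10.1 (767 to 1463 fragments). Vehicle 1L (8.18) and 4R (8.73) reached into the anti-PD-1 range, whereas no mouse mean did. Hif3a rose 1.59-fold, from means of 5.47 ± 1.18 to 8.67 ± 0.281 FPKM (0.67 ± 0.14, adjusted p = 0.0241), and was at 6.27 to 9.58 FPKM in ESK981 and 5.31 to 8.15 in combination tumours, against the same vehicle mice. Of 19 tested hypoxia factors and targets Hif3a was the one called. The list's median was 0.18. With the flow cell in the model it was −0.60, beside 0.59 over all protein-coding genes. Without that term 17 were above 0, among them the pyruvate dehydrogenase kinase Pdk1 (0.55 ± 0.19, adjusted p = 0.183) and the oxygen sensor Egln1 (0.24 ± 0.20). Hif1a itself was at 0.18 ± 0.21.

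Vtcn1 encodes B7-H4, an inhibitory ligand of the B7 family that acts on T cells through a receptor other than PD-1 (chromosome 3, 100825459 to 100896922, plus strand). It was low in every tumour: 0.0228, 0.509 and 0.873 FPKM (lowest, median, highest, 1 to 42 fragments) in vehicle and 0.607, 1.16 and 3.06 (18 to 184 fragments) in anti-PD-1. Anti-PD-1 3L (0.857) and 4R (0.607) lay within the vehicle range and the other 5 above it. Vtcn1 rose 2.13-fold on the log2(FPKM + 0.5) scale, from means of 0.468 ± 0.202 to 1.61 ± 0.572 FPKM (1.09 ± 0.25, adjusted p = 0.0401). ESK981 tumours spanned 0.0422 to 1.25 FPKM and combination tumours 0.207 to 1.77. Of the other 10 tested ligands and receptors of the B7 and TNF families none was called, and Cd276, which encodes B7-H3, was at −0.12 ± 0.19.

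**Figure D2:**
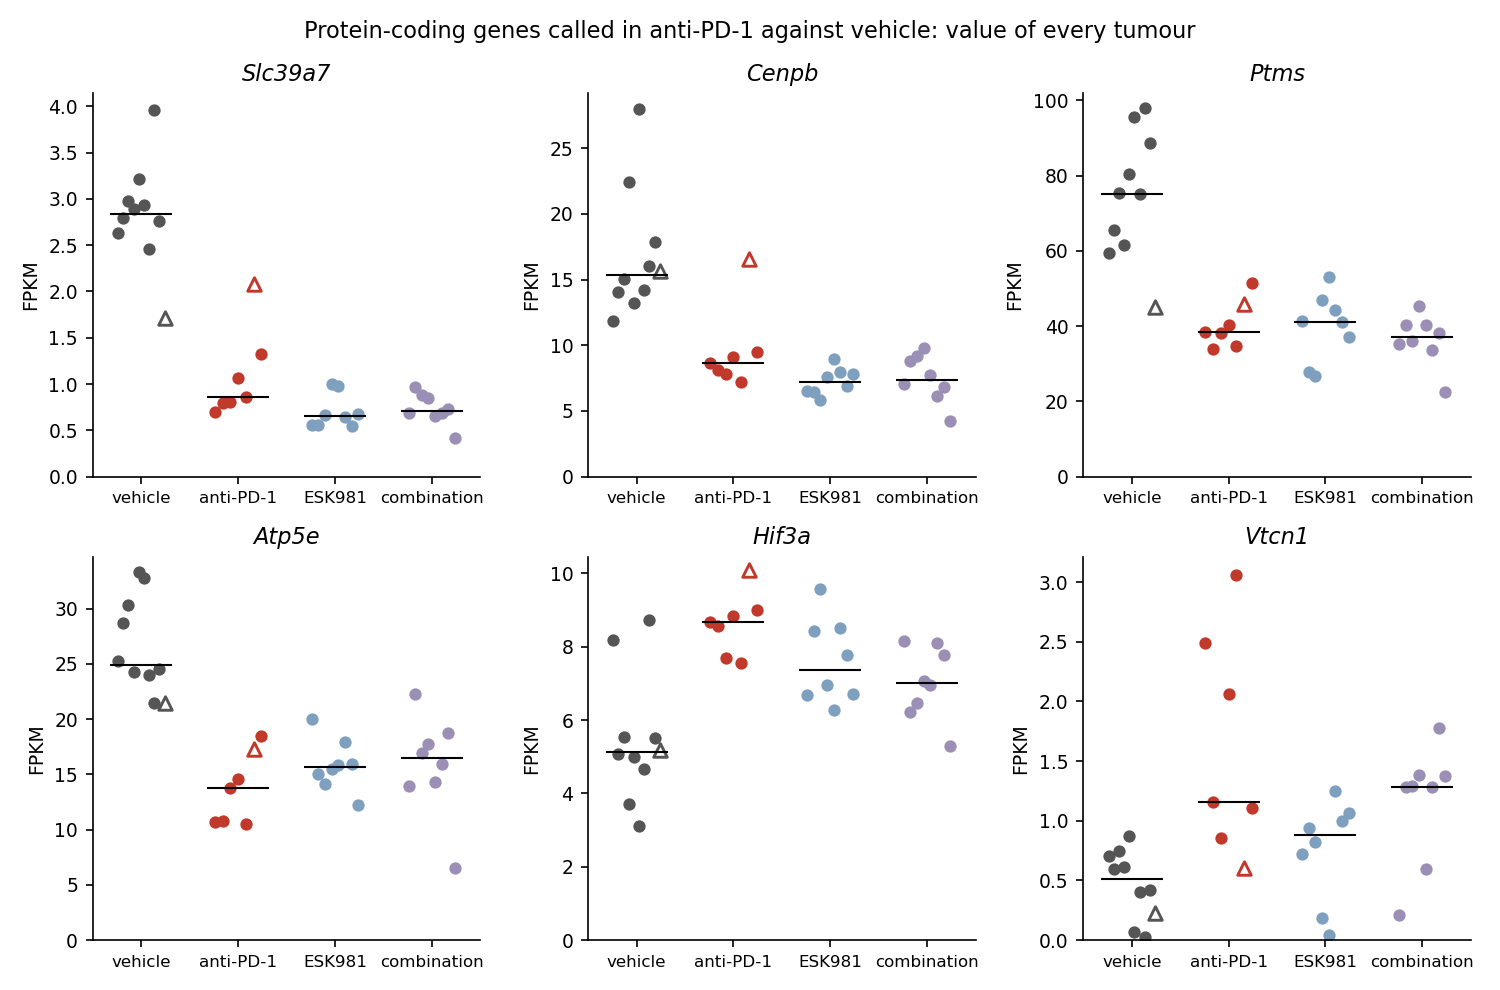
FPKM (y axis, linear, from 0) of every tumour for 6 called genes, by group along the x axis, with the group median as a line. Open triangles mark vehicle 5R and anti-PD-1 4R. Slc39a7, Cenpb, Ptms and Atp5e lay lower and Hif3a and Vtcn1 higher in most anti-PD-1 tumours than in vehicle tumours, with 4R inside the vehicle range for Slc39a7, Cenpb, Ptms and Vtcn1.

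The 250 bases before the RefSeq start of the 3 called genes that are discussed with a pathway (zinc, hypoxia, B7 ligands) are shown to give the sequence next to which these changes were measured (RefSeq, GRCm38.p6, 5′ to 3′ on the gene's strand: Slc39a7 chr17:34031691-34031940 minus, Hif3a chr7:17062428-17062677 minus, Vtcn1 chr3:100825209-100825458 plus). Capitals mark matches on either strand to the hypoxia response core (ACGTG or GCGTG) in Hif3a and to the metal response core (TGCACNC or TGCGCNC) in the other 2.
Slc39a7: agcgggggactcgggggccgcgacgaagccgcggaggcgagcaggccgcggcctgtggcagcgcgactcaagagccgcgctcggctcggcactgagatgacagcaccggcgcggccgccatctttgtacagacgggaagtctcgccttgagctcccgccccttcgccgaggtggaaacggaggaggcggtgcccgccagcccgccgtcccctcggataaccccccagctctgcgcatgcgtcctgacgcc
Hif3a: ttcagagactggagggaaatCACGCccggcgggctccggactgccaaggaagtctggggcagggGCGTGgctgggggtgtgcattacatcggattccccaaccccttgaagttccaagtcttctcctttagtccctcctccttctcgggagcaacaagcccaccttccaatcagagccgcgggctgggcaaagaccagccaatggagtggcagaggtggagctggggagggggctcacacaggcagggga
Vtcn1: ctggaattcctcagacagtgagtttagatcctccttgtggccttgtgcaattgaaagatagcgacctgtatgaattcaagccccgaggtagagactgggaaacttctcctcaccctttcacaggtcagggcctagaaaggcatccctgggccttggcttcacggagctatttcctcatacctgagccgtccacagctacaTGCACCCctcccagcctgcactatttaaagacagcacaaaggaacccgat
Hif3a had 2 matches, 230 and 186 bases before the start, Vtcn1 had 1 and Slc39a7 had none. Of 32851 windows of this length, 38.6% held the hypoxia core and 21.4% the metal core, so that a match is common and is given as a description of the letters.

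The called genes with predicted names were short where the length was known, with under 750 exon bases. Whether fragments shared with similar sequences elsewhere in the genome affected their values was not tested, so the values are uncertain. Gm10260 rose from 41.4 ± 6.03 to 81.2 ± 15.5 FPKM (0.95 ± 0.21, adjusted p = 0.0372), and 96.4% of its exon bases lie opposite Gm26619 on the other strand. Gm9493 (1.08 ± 0.23, adjusted p = 0.0315), Gm5239 (1.03 ± 0.23, 0.0335) and Rpl23a-ps3 (0.81 ± 0.18, 0.0372) also rose, and GENCODE M21 lists these 3 as processed pseudogenes. Rpl23a, the gene that Rpl23a-ps3 copies, was at −0.10 ± 0.20. Gm10076, a lincRNA in M21, fell from 264 ± 43.8 to 113 ± 23.7 FPKM (−1.22 ± 0.24, adjusted p = 0.017), and Gm17305, not in M21, from 3.75 ± 0.863 to 1.17 ± 0.944 (−1.54 ± 0.24, adjusted p = 0.00314). In Gm17305 the tumour 4R was at 4.88 FPKM, within the vehicle range, and the other 6 anti-PD-1 tumours were at 1.05 or less, below every vehicle tumour. ESK981 tumours (0.326 to 1.19 FPKM) and combination tumours (0.0795 to 1.61) were also below every vehicle tumour.

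Of 15846 genes tested, 124 (0.783%) were called. Outside protein-coding genes, these held 66 of 1292 tested pseudogenes (55 higher, 11 lower), 38 of 1270 small noncoding RNAs (7 higher, 31 lower) and 8 of 1645 others. When 4R and 5R were left out, 616 of the same 15846 genes were called. Of the same numbers tested per class, these held 243 pseudogenes (220 higher, 23 lower), 116 small noncoding RNAs (42 higher, 74 lower) and 131 others. The small nucleolar RNA Snord17 fell from 1272 ± 331 to 237 ± 298 FPKM (−3.28 ± 0.49, adjusted p = 0.00307), and the vault RNA Vaultrc5 from 346 ± 119 to 83.5 ± 117 (−2.99 ± 0.46, adjusted p = 0.00314). Snord17 was at 67.5 to 157 FPKM in 6 anti-PD-1 tumours and at 1461 in 4R, which is within the vehicle range of 770 to 2332. The lowest log2 fold change was that of the small nucleolar RNA Gm23547, at −4.68, and the highest that of Gm23502, which rose from 0.427 ± 0.399 to 4.28 ± 2.22 FPKM (2.21 ± 0.42, adjusted p = 0.0138). The ribosomal RNA values given above moved between the groups in the same libraries, and their part in these differences was not tested.

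The target and its ligands did not pass the test. Pdcd1 was at 0, 0.848 and 1.55 FPKM (lowest, median, highest, 0 to 52 fragments) in vehicle tumours and at 0.0916, 0.687 and 1.09 (2 to 51 fragments) in anti-PD-1 tumours. Vehicle 5R and anti-PD-1 4R were the lowest of their groups, and the remaining tumours overlapped widely. Its log2 fold change was −0.20 ± 0.26, with a 95% interval from −0.74 to 0.33 (adjusted p = 0.75). Cd274, at 2.45 to 20.2 FPKM in vehicle and 4.05 to 10.1 in anti-PD-1 tumours, was at −0.23 ± 0.39 (interval −1.04 to 0.58), and Pdcd1lg2 at −0.09 ± 0.42. The T cell kinase Lck was the lowest of the 9 tested genes of the PD-1 axis (−0.37 ± 0.26) and the phosphatase Ptpn11, which PD-1 recruits, the highest (0.02 ± 0.16). The list's median was −0.20. With the flow cell in the model it was 1.11, beside 0.59 over all protein-coding genes, so that its sign depended on that term.

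T cell and cytotoxic genes were low in both groups and none was called. The median was −0.14 for 14 genes of the T cell receptor complex and −0.04 for 10 cytotoxic effectors. With the flow cell in the model these medians were 1.02 and 0.93, beside 0.59 over all protein-coding genes. Cd3e was at 1.33 ± 0.358 FPKM in vehicle and 1.16 ± 0.278 in anti-PD-1 mice, Cd8a at 0.61 ± 0.154 and 0.524 ± 0.194, and Cd4 at 0.789 ± 0.289 and 0.659 ± 0.157. Without the flow cell in the model, the intervals of their log2 fold changes ran from −0.61 to 0.50 for Cd3e, from −0.56 to 0.40 for Cd8a and from −0.51 to 0.23 for Cd4. A doubling on this scale lay outside these intervals, but they measure only the spread between mice. They do not cover a difference between flow cells, so a doubling is not excluded. Granzyme B (Gzmb) was at −0.29 ± 0.32, perforin (Prf1) at −0.28 ± 0.30 and interferon gamma (Ifng) at −0.37 ± 0.30. Ifng was highest in anti-PD-1 mouse 5 (1.61 FPKM), whereas the other 4 mice of that group were at 0.226 to 0.506 and the vehicle mice averaged 0.969 ± 0.46.

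Receptors that restrain T cells showed the same absence of calls. Lag3 was at 1.93 ± 0.345 FPKM in vehicle and 1.21 ± 0.416 in anti-PD-1 mice (−0.46 ± 0.24, adjusted p = 0.412), the lowest of the 8 tested, and the costimulatory receptor Tnfrsf9 was the highest (0.35 ± 0.35). Tnfrsf9 was at 38.5 FPKM in anti-PD-1 4R and 2.37 to 7.34 in the other 6 tumours of that group, and at 23.005 in vehicle 5R and 1.80 to 6.86 in the other 9 vehicle tumours, and with the flow cell in the model its value turned to −1.78. Ctla4, Tigit and Havcr2 were at −0.13 ± 0.21, −0.33 ± 0.24 and −0.04 ± 0.27. The regulatory T cell factor Foxp3 was under the filter, with a median of 0.132 FPKM in vehicle and 0.145 in anti-PD-1 tumours, and the related factor Ikzf2, also expressed by other cells, was at 0.47 ± 0.16 (adjusted p = 0.172).

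**Figure D3:**
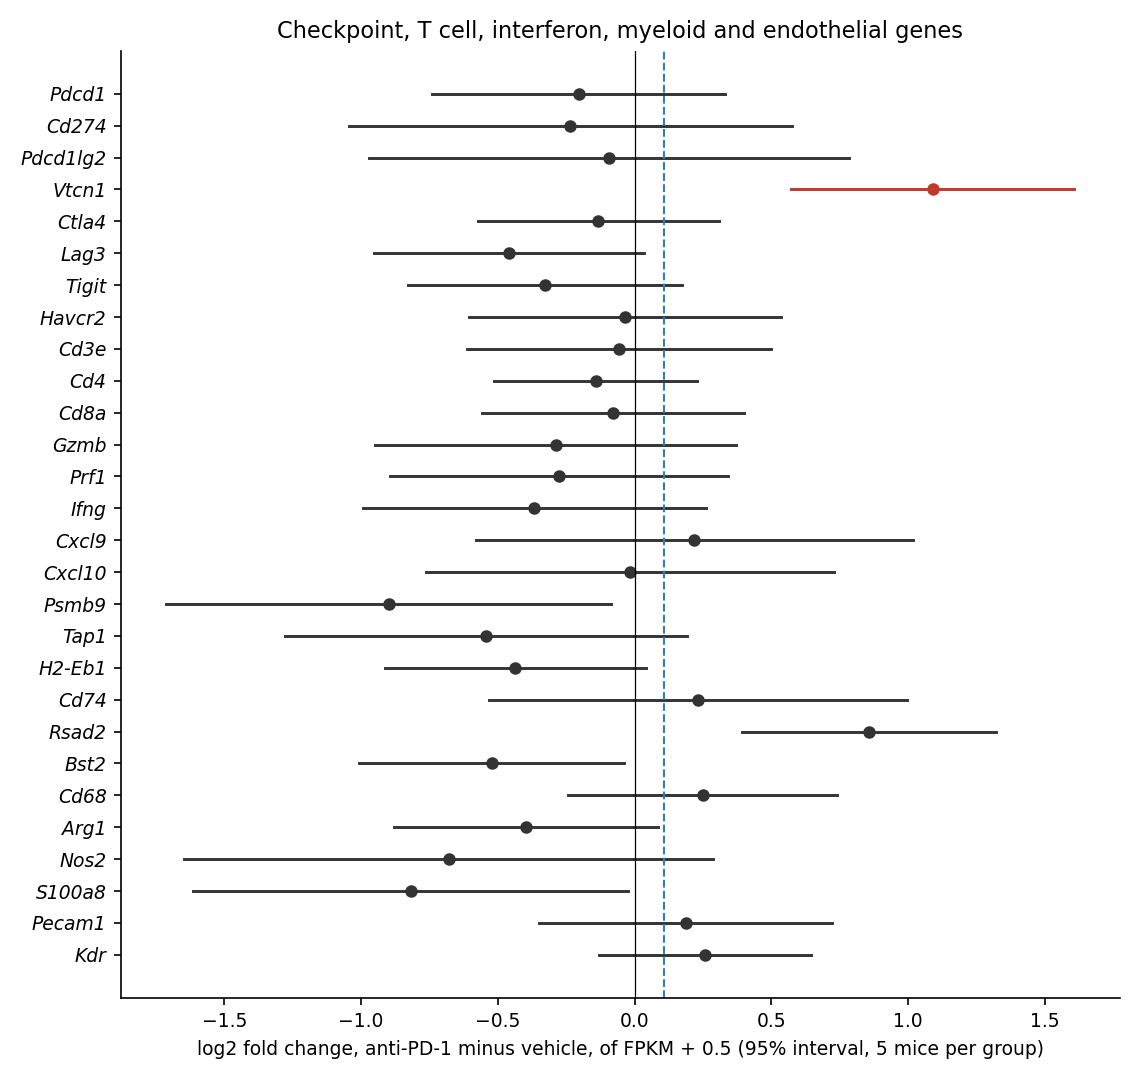
Log2 fold change, anti-PD-1 minus vehicle, of FPKM + 0.5 (x axis), with its 95% interval over 5 mice per group, for 28 immune and endothelial genes (y axis), the one called gene in red and the median of all protein-coding genes as a dashed line. Vtcn1 is called at 1.09, while the intervals of Pdcd1, Cd274, Cd3e, Cd8a and Ifng span 0.

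The interferon lists lay on opposite sides of the median of all genes. With the flow cell in the model the list medians moved to 1.31 (interferon gamma) and 0.87 (type I), beside 0.59 over all protein-coding genes. None of the 24 interferon gamma response genes was called. Their median was −0.36, 22 were below 0 and 3 of them were below 0 at an unadjusted p under 0.05, a level that 1.43% of all protein-coding genes reached in that direction. The lowest were the immunoproteasome subunits Psmb9 (10.9 ± 4.20 FPKM in vehicle, 5.77 ± 3.43 in anti-PD-1, −0.90 ± 0.39, adjusted p = 0.319) and Psmb8 (−0.76 ± 0.33). Cxcl9, a T cell attracting chemokine, was the highest at 0.22 ± 0.38, with 14.2 ± 5.23 FPKM in vehicle and 15.6 ± 4.86 in anti-PD-1 mice, and Cxcl10 was at −0.02 ± 0.36. Psmb9 was at 11.8 FPKM in anti-PD-1 5L and at 1.88 to 6.17 in the other 6, which shows that mouse 5 was high in that group for Psmb9 as for Ifng.

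The 24 type I interferon response genes are antiviral effectors that overlap in part with the previous list in their regulation. Of these 24, 20 were above 0, where 71.6% of all protein-coding genes were, and the list's median was 0.22. None was called with all tumours, but 7 were above 0 at an unadjusted p under 0.05, where 6.07% of all protein-coding genes were. Rsad2, which encodes the antiviral enzyme viperin, was the highest: its values were 0.163, 0.460 and 1.41 FPKM (lowest, median, highest) in vehicle and 0.367, 1.37 and 2.19 in anti-PD-1 tumours. Both lowest values were those of 5R and 4R, and the mice of the groups did not overlap (0.591 ± 0.322 against 1.49 ± 0.483, log2 fold change 0.86 ± 0.22, adjusted p = 0.0698). Ifit2, an RNA-binding antiviral protein gene, was at 0.58 ± 0.16 (adjusted p = 0.0863), Ifit1 at 0.60 ± 0.23, Mx2 at 0.58 ± 0.22 and Mx1 at 0.55 ± 0.21. The fit without 4R and 5R called 80 of 11639 protein-coding genes higher. In it Rsad2 (0.99 ± 0.22, adjusted p = 0.0143), Ifit2 (0.71 ± 0.17, 0.0232) and Mx1 were called and the median of the list was 0.32. With all tumours, other members were below 0, namely Bst2 (−0.52 ± 0.23), Isg15 (−0.19 ± 0.19), Stat2 (−0.14 ± 0.27) and Zbp1 (−0.10 ± 0.24). Of these, Isg15 (1.08) and Stat2 (1.49) turned positive with the flow cell in the model.

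The upstream windows of 2 members high in that list and of Isg15, a member below 0, are shown because they carry the interferon-stimulated response element (GAAANNGAAA, either strand, matches in capitals, overlapping in Isg15; RefSeq, GRCm38.p6, 5′ to 3′: Rsad2 chr12:26456453-26456702 minus, Ifit1 chr19:34640639-34640888 plus, Isg15 chr4:156200819-156201068 minus).
Rsad2: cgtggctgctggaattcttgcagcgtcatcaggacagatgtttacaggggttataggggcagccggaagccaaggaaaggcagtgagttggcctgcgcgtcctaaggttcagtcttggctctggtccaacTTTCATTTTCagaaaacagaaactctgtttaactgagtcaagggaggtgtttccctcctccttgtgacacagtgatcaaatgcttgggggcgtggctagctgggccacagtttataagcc
Ifit1: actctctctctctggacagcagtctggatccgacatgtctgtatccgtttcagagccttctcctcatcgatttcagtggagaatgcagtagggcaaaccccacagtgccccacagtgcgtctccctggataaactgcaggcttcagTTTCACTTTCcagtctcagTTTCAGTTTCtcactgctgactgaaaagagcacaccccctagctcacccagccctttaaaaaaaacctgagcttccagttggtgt
Isg15: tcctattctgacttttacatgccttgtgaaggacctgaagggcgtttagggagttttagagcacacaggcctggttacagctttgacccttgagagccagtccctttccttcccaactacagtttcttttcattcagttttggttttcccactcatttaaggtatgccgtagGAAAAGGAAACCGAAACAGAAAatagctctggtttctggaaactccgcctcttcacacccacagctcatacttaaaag
The element was found in 2.98% of the 32851 windows, in 8 of the 18 type I list genes that had a window and in 11 of 17 interferon gamma list genes. Isg15 held 3 matches and was at −0.19, whereas Rsad2 held 1 and was at 0.86, and neither was called with all tumours. With the flow cell in the model Isg15 was at 1.08, beside 0.59 over all protein-coding genes. Whether the element had a part in these values was not tested.

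Antigen presentation did not pass the test either. With the flow cell in the model its list medians were 0.71 for class I and 1.41 for class II, beside 0.59 over all protein-coding genes. Their sign differed from that without the term, in a fit that also raised the median of all genes. The 12 MHC class I genes had a median of −0.25, with 9 below 0. They ran from Tap1, a subunit of the peptide transporter (−0.54 ± 0.35), to the chaperone Pdia3 (0.20 ± 0.17), and their summed FPKM over mice was 999 to 2568 in vehicle and 1318 to 2485 in anti-PD-1. The 8 tested MHC class II genes had a median of −0.08, from H2-Eb1 (−0.44 ± 0.23) to the invariant chain gene Cd74 (239 ± 78.2 FPKM in vehicle and 256 ± 29.9 in anti-PD-1, 0.23 ± 0.37).

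Myeloid genes were also without a call. The 16 macrophage genes had a median of 0.04, from the scavenger receptor Cd163 (−0.44 ± 0.31) to Apoe (0.29 ± 0.45), and Cd68 was at 17.7 ± 5.57 FPKM in vehicle and 19.9 ± 2.70 in anti-PD-1 mice (0.25 ± 0.24). All 6 tested genes of alternatively activated macrophages were below 0, Arg1 at −0.40 ± 0.23 and Retnla, which skin and other tissues also express, at −1.79 ± 0.57 (adjusted p = 0.141). Without 4R and 5R Retnla was called (−2.12 ± 0.52, adjusted p = 0.0262): it was at 20.5 FPKM in 4R and 0.0729 to 2.003 in the other 6 anti-PD-1 tumours. Of 10 inflammatory myeloid genes 9 were below 0 (median −0.31), with the chemokine Ccl4 the lowest (−0.90 ± 0.35, adjusted p = 0.251) and Nos2 at −0.68 ± 0.46. With the flow cell in the model that median was 0.41, below the 0.59 of all protein-coding genes. The neutrophil gene S100a8 was at 1.496 ± 1.29 FPKM in vehicle and 0.390 ± 0.228 in anti-PD-1 mice (−0.82 ± 0.38, adjusted p = 0.361), while the defining neutrophil gene Ly6g was listed at 0 in all 17 tumours.

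**Figure D4:**
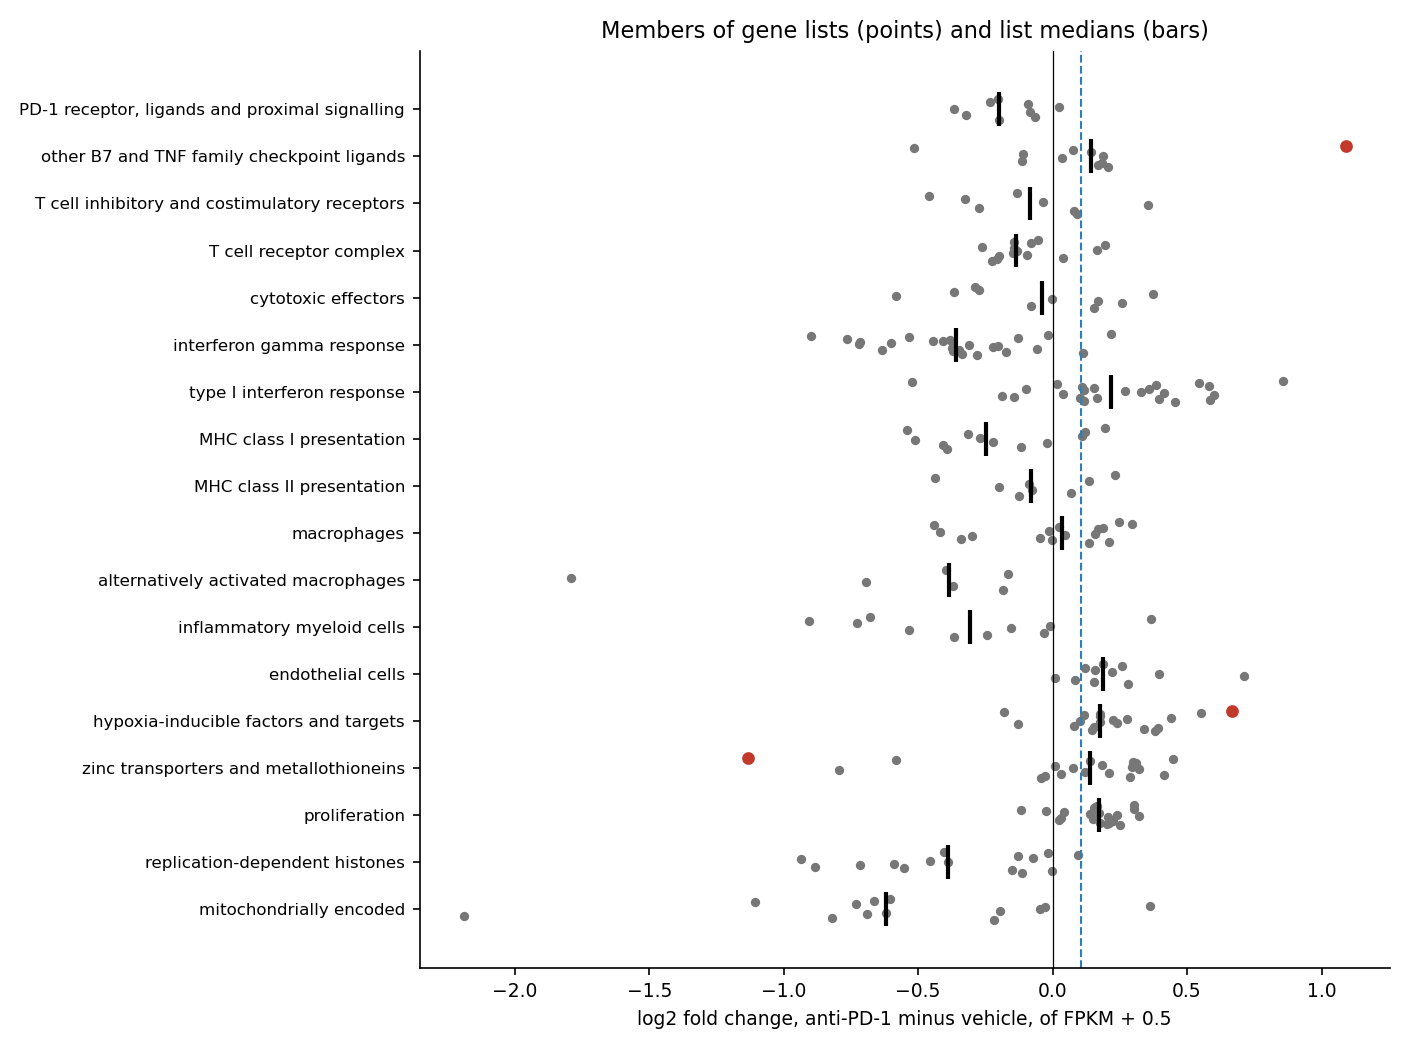
Log2 fold change, anti-PD-1 minus vehicle, of FPKM + 0.5 (x axis) of the tested members (points) of 18 gene lists (y axis), with list medians as black bars, called genes in red and the median of all protein-coding genes as a dashed line. The called genes Vtcn1, Hif3a and Slc39a7 stand out of their lists, and the interferon gamma list (median −0.36) lies left of the type I list (0.22).

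Stress, growth and autophagy genes gave no further call with all tumours. In the unfolded protein response the extremes were Pdia4 (0.48 ± 0.16, adjusted p = 0.15) and Ddit3 (−0.43 ± 0.28), among immediate early genes Fosl1 (0.40 ± 0.56) and Fos (−0.73 ± 0.27), and among heat shock genes Hspa8 (0.26 ± 0.19) and Hspa1b (−0.24 ± 0.24). The 22 proliferation genes had a median of 0.17, with 20 above 0, where 71.6% of all protein-coding genes were above 0. The marker Mki67 was at 17.7 ± 3.18 FPKM in vehicle and 22.3 ± 4.72 in anti-PD-1 mice (0.30 ± 0.45). The endogenous mouse Myc gene, which is not the transgene of the line, was at 6.996 ± 2.36 and 5.91 ± 1.83 FPKM (−0.18 ± 0.21). The 15 replication-dependent histone genes, many of whose transcripts lack a poly(A) tail, had a median of −0.39, 14 below 0. With the flow cell in the model their median was 0.46, below the 0.59 of all protein-coding genes. Among 22 autophagy genes Pikfyve, the kinase that the series concerns, was at 0.11 ± 0.17 and Sqstm1 at −0.07 ± 0.15. The list's median was 0.08, and without 4R and 5R the autophagy kinase gene Ulk2 was called (0.42, adjusted p = 0.0365).

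Markers of cells outside the tumour were measured beside these lists. Of the skeletal muscle genes 9 of 10 were below 0 and none was called (median −0.64). With the flow cell in the model their median was 0.58, beside 0.59 over all protein-coding genes. Their summed FPKM over mice was 0.740 to 279 in vehicle and 1.15 to 66.6 in anti-PD-1. Keratinocyte markers summed to at most 0.666 and 1.98 FPKM, adipocyte markers to at most 1.96 and 9.28, and red blood cell markers to at most 12.9 and 16.3. The 11 tested endothelial genes were all above 0 (median 0.19) with none called, where 71.6% of all protein-coding genes were above 0. Pecam1 was at 0.19 ± 0.26 and Kdr at 0.26 ± 0.19. The highest was the endothelial cadherin gene Cdh5 (0.71 ± 0.26), which was called without 4R and 5R (0.77, adjusted p = 0.0497). Of 13 fibroblast and matrix genes 6 were above and 7 below 0 (median −0.12), and 8 pericyte and smooth muscle genes had a median of 0.27. None of these 21 was called with or without 4R and 5R. With the flow cell in the model the medians were 1.27 for endothelial, 1.59 for pericyte and −0.10 for fibroblast genes, beside 0.59 over all protein-coding genes. The part of these cells in the differences above was not tested.

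The 10 uncalled protein-coding genes closest to the threshold had an adjusted p from 0.0536 to 0.0663. The ribosomal protein gene Rps21 was at 284 ± 41.8 FPKM in vehicle and 154 ± 37.9 in anti-PD-1 mice (−0.92 ± 0.22). Nrep (−1.06 ± 0.26) and Crip1 (−0.86 ± 0.21) were also lower. On the higher side were the splicing regulator Rbm4 (0.67 ± 0.16), the nucleotide sugar transporter Slc35d2 (0.60 ± 0.15), Nipal1 (0.65 ± 0.16), the actin-binding protein gene Shroom2 (0.48 ± 0.12), and the ribosomal protein copies Rpl6l (0.86 ± 0.21) and Rpl9-ps6 (0.79 ± 0.20). Without 4R and 5R, 9 of these 10 were called, in a fit that called 80 protein-coding genes higher and 46 lower of 11639. The 10 had been picked by their p in largely the same tumours, so this count is no separate support for them.

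Fold changes of all protein-coding genes varied with gene length. The median log2 fold change was 0.11, with 71.6% of genes above 0 and 97.2% within 0.5 of 0, and the median SE was 0.17. At an unadjusted p under 0.05, 707 genes (6.07%) were higher and 167 (1.43%) lower. Across genes, which are not independent replicates, the log2 fold change had a Spearman correlation of 0.33 with exon length and of −0.34 with GC content (11620 genes with both values). The median rose from −0.07 for 219 genes with under 750 exon bases to 0.17 for 3646 genes with 6000 or more. The called genes were short in part, with 5 of the 11 of known exon length under 750 bases. The 83 genes with a cytosolic ribosomal protein symbol had a median of −0.10 with none called. Without 4R and 5R, 7 of them were called lower, among them Rps21, Rps28 and Rpl35a, and 1 was called higher. The one called higher was the ribosomal protein copy Rpl6l (0.86), which GENCODE M21 lists as a processed pseudogene. The 127 genes with a ribosomal protein pseudogene symbol, of any type, had a median of 0.48. Of them, 10 were called higher and 2 lower, beside 124 called of 15846 genes of any type. Without 4R and 5R, 37 were called higher and 4 lower, beside 616 called of 15846. Length, depth and ribosomal RNA moved together with the group here, and their part in single differences was not tested.

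**Figure D5:**
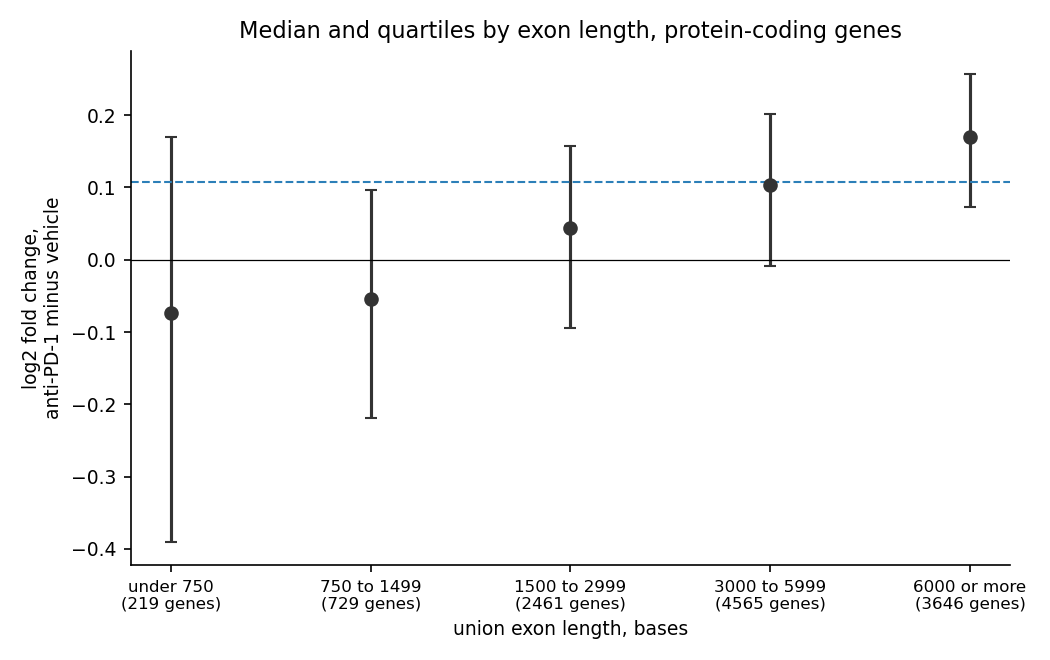
Median log2 fold change, anti-PD-1 minus vehicle (y axis), with quartiles as bars, of protein-coding genes by exon length in bases (x axis), with the median of all genes as a dashed line. The medians increase from −0.07 in the shortest class to 0.17 in the longest.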

How the data were processed

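Total RNA of 33 tumours was sequenced after ribosomal RNA depletion, per the labels' protocols. The authors deposited FPKM per gene, from STAR and featureCounts on mm10, per the submitters' processing notes. The sources used here give no tool versions, annotation or use of strand. All columns matched a sample. Depth came from the steps of low FPKM, which matched whole fragments (100% of low values, tolerance 0.01). FPKM were averaged as log2(FPKM + 0.5) per mouse and fitted in limma 3.58.1 (R 4.3.3) with 4 groups of 5 mice, a trend of variance with level (residual degrees of freedom 16, prior 5.07), two-sided, checked on simulated data. P-values measure the spread between mice. Gene models were GENCODE M21 (GRCm38), in which 48435 of 48795 identifiers matched in any version. Library measures used exact permutation tests in scipy 1.17.1.

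The comparison and 38 gene lists were chosen with earlier results of these data known, and lists are described by counts and medians without a test. Genes named were all called protein-coding genes, a fixed set of immune and tumour genes, the highest and lowest member of each immune, stress and metal list, the 10 uncalled genes with the smallest p and up to 3 called noncoding genes per direction, of which a few genes are not reported here. Others were chosen after their values were seen, among them Foxa1, Psmb8, Ifit1, Ifit2, Mx1, Mx2, Hif1a, Pdk1, Egln1, Cenpc1, Cd276 and Rpl23a. Alternatives covered pseudocount, filter, scaling, GC content and length, flow cell, flank and each mouse.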

Additional observations from a re-analysis of the deposited data

Results flagged for a closer look

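In 84 groups of 5 mice (a gene or library measure in one treatment group), 6 held a mouse whose gap to the nearest other mouse, divided by the range of the group, exceeded Dixon's critical value of 0.71, and chance alone gives about 1 in 20 groups. Vehicle mouse 5, which includes tumour 5R, was low in 3 of them. Its Pdcd1 was 0.432 FPKM against 0.958 to 1.19 in the other 4 mice (ratio 0.724), its Cxcl9 was 5.10 against 14.7 to 18.2 (0.854), and its Ctla4 was 0.194 against 0.760 to 0.975 (0.807). Anti-PD-1 mouse 4, which includes tumour 4R, was low for Mki67 at 14.0 FPKM against 23.1 to 25.6 (0.858) and for the protein-coding share of FPKM at 41.2% against 50.1% to 53.5% (0.722). Anti-PD-1 mouse 5, with the single tumour 5L, was high for Ifng at 1.61 FPKM against 0.226 to 0.506 (0.79).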

How the results depend on the processing

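Counts are of protein-coding genes called higher and lower and of genes of any type, beside 6, 6 and 124. They were 1, 3 and 56 without a filter, 0, 2 and 2 when only protein-coding genes were tested, 20, 151 and 358 under median-of-ratios scaling, 305, 98 and 805 when scaled to nuclear protein-coding FPKM, and 34, 92 and 331 with the GC content and exon length trend removed. With only the anti-PD-1 and vehicle mice 20 were lower, and with single tumours and the mouse as a random block 12 were higher and 13 lower. A flow cell term in that fit gave 3444, 34 and 4397, and right-flank tumours alone 1, 0 and 23. Without vehicle 5R and anti-PD-1 4R the counts were 80, 46 and 616, without 4R alone 109, 37 and 702, without 5R alone 12 lower, and without 5R, 4R and combination 5R (chosen after seeing the data) 752, 133 and 1769. Leaving out each mouse in turn gave 0 to 25 higher, 2 to 17 lower and 29 to 375 of any type. All 12 called genes kept their direction in 27 of 27 alternatives, which were refits of largely the same tumours. Fewer stayed called: 0 of the 12 with right-flank tumours alone or with the flow cell term, and 3 without a filter. With the flow cell term Tnfrsf9 reversed to −1.779, Nop56 to 1.071, Isg15 to 1.076 and Stat2 to 1.49 on the log2 scale. The cause of these changes was not tested. No paired analysis was possible because the mice of the groups share no number. Depth limits Pdcd1, Cd8a and Vtcn1, which rest on as few as 0 or 1 fragments in single vehicle tumours.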

Other observations

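The genes here belong to none of the lists described above and were chosen after their values were seen. Thrombospondin 1 (Thbs1), a matrix protein that restrains vessel growth, was at 1.13 FPKM in anti-PD-1 4R and 9.55 to 46.1 in the other 6 anti-PD-1 tumours, against 1.68, 6.11 and 16.8 (lowest, median, highest) in vehicle tumours. Ctgf, a matricellular target of YAP signalling, was at 1.61 in 4R and 9.17 to 23.9 in the other 6, against 1.41 to 17.1 in vehicle tumours. Both were called higher by limma without 4R and 5R, Thbs1 with a log2 fold change of 1.65 and an adjusted p of 0.0241.

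The connective tissue genes Clec3b and Dpt had values in the other direction, while the list of 13 fibroblast and matrix genes had 6 above and 7 below 0 and none called. Clec3b was at 0 to 0.209 FPKM in 6 anti-PD-1 tumours and at 11.5 in 4R, against 0.117, 2.22 and 26.1 in vehicle tumours. Dpt, which encodes dermatopontin of the skin matrix, was at 0.0560 to 0.623 in 6 anti-PD-1 tumours and at 18.3 in 4R, against 0.235, 2.26 and 19.5. Without 4R and 5R limma called both lower, Clec3b at −2.13 (adjusted p = 0.0106) and Dpt at −1.81 (adjusted p = 0.0146).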
